A study of Mus musculus with 6 samples.

Results

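Egr1, Egr2, Egr3, Egr4, Nr4a1, Nr4a3, Arc and Npas4 are immediate early genes, which neurons transcribe within minutes of synaptic input and without new protein synthesis. The 8 genes were taken by name from the 18560 rows of a table of unique molecular identifier (UMI) counts in single cells of the adult mouse olfactory bulb, and all 8 were present. The cells came from C57BL/6NJ mice aged 14 weeks, in 3 conditions with 2 libraries each. Control mice had no olfactory manipulation per the labels, and the study's text calls them naive, although it also names the open side of occluded mice as a control. Naris occluded mice had 1 nostril plugged, which deprives the bulb of odor input. Trained mice were deprived of water and learned to tell a rewarded odor from an unrewarded one. Both manipulations lasted 6 weeks. Replicate 1 of each condition pooled 3 males and replicate 2 pooled 3 females, so that no library stands for a single animal. How long after the last training session the bulbs were taken was not found in the labels or methods, and the tissue was digested with papain at 37 °C before capture.

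The products of these genes act at different steps of the response to activity. The EGR proteins are zinc finger transcription factors. Nr4a1 and Nr4a3 encode orphan nuclear receptors, which also bind DNA as transcription factors. Npas4 encodes a transcription factor that is largely restricted to neurons and is induced by calcium entry. Arc encodes a protein that acts at synapses, where it promotes the removal of AMPA receptors. Calcium and growth factor signals reach such promoters through CREB, which binds the cAMP response element (CRE), and through serum response factor, which binds the CArG box. In the olfactory bulb, granule cells and periglomerular cells are inhibitory interneurons that are renewed through adult neurogenesis, and odor input reaches them through sensory neurons and the mitral and tufted cells.

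Of the 8 genes, 5 had a promoter in the RefSeq table used here (GRCm38.p6). Each promoter ran from 250 bases before the start site to 50 bases after it. TGACG, the core letters of the CRE, was found on either strand in the promoters of 5 of these 5 genes, compared with 20.8% of 32851 promoters of the same length. A promoter with 2 or more TGACG matches was present for 5 of 5 genes, compared with 5.01% of promoters. The full palindrome TGACGTCA, which contains TGACG on both strands, was in none of the 5 and in 1.79% of promoters. The CArG box was found in Egr2 (1.63% of promoters), and the EGR site GCGNGGGCG in Nr4a1 (5.55% of promoters). Neither the NR4A site AAAGGTCA (1.51% of promoters) nor the AP-1 site TGANTCA (7.81% of promoters) was in these windows. The 250 bases before the start site are shown because the 5 genes share these letters. Whether the letters bear on the levels in these cells was not tested. The capitals mark TGACG or its complement CGTCA, the CArG box in Egr2 and the EGR site in Nr4a1.
Nr4a1 (chr15:101266596-101266845, plus strand): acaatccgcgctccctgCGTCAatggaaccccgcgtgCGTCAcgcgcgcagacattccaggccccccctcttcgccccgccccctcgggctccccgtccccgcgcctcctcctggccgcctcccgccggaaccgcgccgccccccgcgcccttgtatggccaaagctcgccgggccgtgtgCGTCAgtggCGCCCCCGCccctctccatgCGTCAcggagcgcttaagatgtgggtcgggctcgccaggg
Nr4a3 (chr4:48045055-48045304, plus strand): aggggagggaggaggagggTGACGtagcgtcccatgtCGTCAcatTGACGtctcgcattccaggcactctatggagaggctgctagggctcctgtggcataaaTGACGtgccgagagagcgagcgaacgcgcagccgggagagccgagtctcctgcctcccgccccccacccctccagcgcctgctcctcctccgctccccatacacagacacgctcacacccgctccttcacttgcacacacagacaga
Npas4 (chr19:4989972-4990221, minus strand): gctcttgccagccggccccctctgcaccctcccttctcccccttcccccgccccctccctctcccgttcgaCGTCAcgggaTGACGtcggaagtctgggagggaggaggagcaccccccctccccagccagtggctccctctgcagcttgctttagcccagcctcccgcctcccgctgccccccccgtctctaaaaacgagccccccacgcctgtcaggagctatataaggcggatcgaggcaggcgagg
Egr4 (chr6:85513590-85513839, minus strand): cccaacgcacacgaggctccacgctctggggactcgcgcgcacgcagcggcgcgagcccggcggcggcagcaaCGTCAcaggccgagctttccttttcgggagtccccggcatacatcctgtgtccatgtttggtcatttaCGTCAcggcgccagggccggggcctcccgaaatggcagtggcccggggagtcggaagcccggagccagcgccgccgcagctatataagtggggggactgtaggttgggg
Egr2 (chr10:67537619-67537868, plus strand): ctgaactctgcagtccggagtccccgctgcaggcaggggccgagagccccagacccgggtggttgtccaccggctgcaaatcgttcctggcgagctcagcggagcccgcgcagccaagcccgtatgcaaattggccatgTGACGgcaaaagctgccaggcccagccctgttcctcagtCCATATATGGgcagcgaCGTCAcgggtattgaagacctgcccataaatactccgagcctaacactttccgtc
The Nr4a1 and Nr4a3 windows held 4 TGACG matches each, and the others 2 each. Egr2 has 5 annotated starts, and its window is the first of the 3 that hold the match. A gene was counted where any of its windows held the match, while the shares are over single promoters. Egr1, Egr3 and Arc were not matched in the table.

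The table held 52549 barcodes, of which 51426 carried a cluster name. The libraries had 6705 to 10570 annotated cells, 11841160 to 17065083 UMIs and a median of 1028 to 1723.5 UMIs per cell. Trained replicate 1 was the shallowest, with the largest median mitochondrial share (14.4%, compared with 9.25% to 11.6% in the others). Of the annotated cells, 2956 (5.75%) had a barcode sequence that also occurred in another library. The labels were checked on sex-linked transcripts, and the 3 replicate 1 libraries held 0 to 5 UMIs of Xist, compared with at least 20000 in the replicate 2 libraries. Defining markers of microglia and myelinating oligodendrocytes followed the cluster names. Cx3cr1 was at 1805 CPM (UMI counts of a gene per 1000000 UMIs of all genes) in microglia and 9.96 in all neurons. Mag was at 1862 CPM in myelinating oligodendrocytes and 7.10 in neurons. In n09-GC-3, the interneuron markers Gad1 and Gad2 were at 285 and 46.8 CPM, compared with 794 and 257 in all neurons. Slc32a1, also an interneuron marker, was at 222 and 246 CPM in the same order. In n13-AstrocyteLike, markers of neurons and some markers of astrocytes were found. The interneuron marker Gad1 was at 676 CPM in n13 and 794 in all neurons. The astrocyte marker Aqp4 was at 59.8 CPM in n13, 845 in astrocytes and 26.3 in all neurons. Gfap, another astrocyte marker, was at 134, 330 and 41.2 CPM in the same order. Of other genes high in astrocytes, Slc1a2, Aldoc and Gja1 were higher in n13 than in all neurons (Slc1a2 409 and 172 CPM). Slc1a3 was lower, at 178 and 215 CPM. The oligodendrocyte gene Mbp was at 4735 and 1240 CPM, and the sensory neuron marker S100a5 at 2393 and 1494. Aqp4 and Gfap were also above all neurons in n14-GC-7, at 50.3 and 85.3 CPM. The mitochondrial share of n13 was 27.6% to 32.0%, and 1202 of its 2950 cells came from trained replicate 1.

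Egr1 was the most frequently counted of the 8 genes, with 5272 UMIs over all annotated cells, followed by Nr4a1 with 2011, Arc with 729, Npas4 with 499, Egr4 with 425, Nr4a3 with 315 and Egr2 with 256. UMIs were counted at the 3′ end with no scaling to length, so levels are compared between cells and not between genes. Egr3 had 8 UMIs in all, 4 in control replicate 1 and 4 in trained replicate 1, which was too few for any comparison. The neuronal clusters N1 to N16, with 22501 cells, held 88.6% of the Npas4 UMIs and 79.3% of those of Egr4. They held 61.3% of the Arc, 60.6% of the Nr4a3 and 49.5% of the Nr4a1 UMIs. The share was 37.0% for Egr1 and 22.7% for Egr2, and the microglial clusters held 23.1% and 34.0% of these genes.

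The level of Egr1 over the 38 clusters of the whole bulb was highest in the microglial cluster MicroG1, at 517 ± 66.3 CPM (SD over the 6 libraries of all conditions). It was 254 ± 58.6 CPM in the olfactory ensheathing cluster OEC5, 176 ± 45.9 in macrophages, 131 ± 56.6 in monocytes and 126 ± 48.5 in the neuronal cluster N10. The 6 values of MicroG1 did not overlap with those of OEC5, and each of the following neighbours overlapped. Of the MicroG1 cells 61.5% had an Egr1 UMI, at a median of 2336 UMIs per cell, compared with 3.65% of red blood cells at a median of 3894. After each cell was thinned to 500 UMIs these shares were 21.6% and 0.913%.

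Egr2 had its highest levels in the same immune clusters, with 35.1 ± 10.97 CPM in MicroG1 and 29.9 ± 21.0 in macrophages, and these overlapped. Egr4 was highest in N10 at 35.1 ± 17.6 CPM and had no UMI in monocytes, macrophages or N2. Nr4a1 was at 76.3 ± 32.7 CPM in N10, 56.1 ± 28.1 in oligodendrocyte precursors and 52.5 ± 20.4 in OEC5, which overlapped. Npas4 was highest in N11 (44.7 ± 25.3 CPM) and N9 (42.1 ± 19.6 CPM). An Npas4 UMI was found in 2.63% of N11 cells after thinning, compared with 0.0639% of cells of the astrocyte cluster Astro1. The median depths of these clusters before thinning were 1679 and 1851.5 UMIs, and the shares were then 10.4% and 0.192%.

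The highest mean of Arc was in myelinating oligodendrocytes, at 39.9 ± 15.5 CPM, next to 33.2 ± 11.7 in N10. The 2 ranges overlapped, and in the control libraries alone the highest mean of Arc was in N7. In the oligodendrocytes 12.1% of 858 cells had an Arc UMI at a median of 3322 UMIs, and the thinned share of 1.28% was next to 1.49% in N10 and 0.0639% in Astro1. The highest mean of Nr4a3 was in the mesenchymal cluster Mes2 and rested on 17 UMIs in 230 cells. The trained libraries of Mes2, which are part of that mean, were at 61.1 and 68.8 CPM, and the others were between 0 and 8.23.

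**Figure D1:**
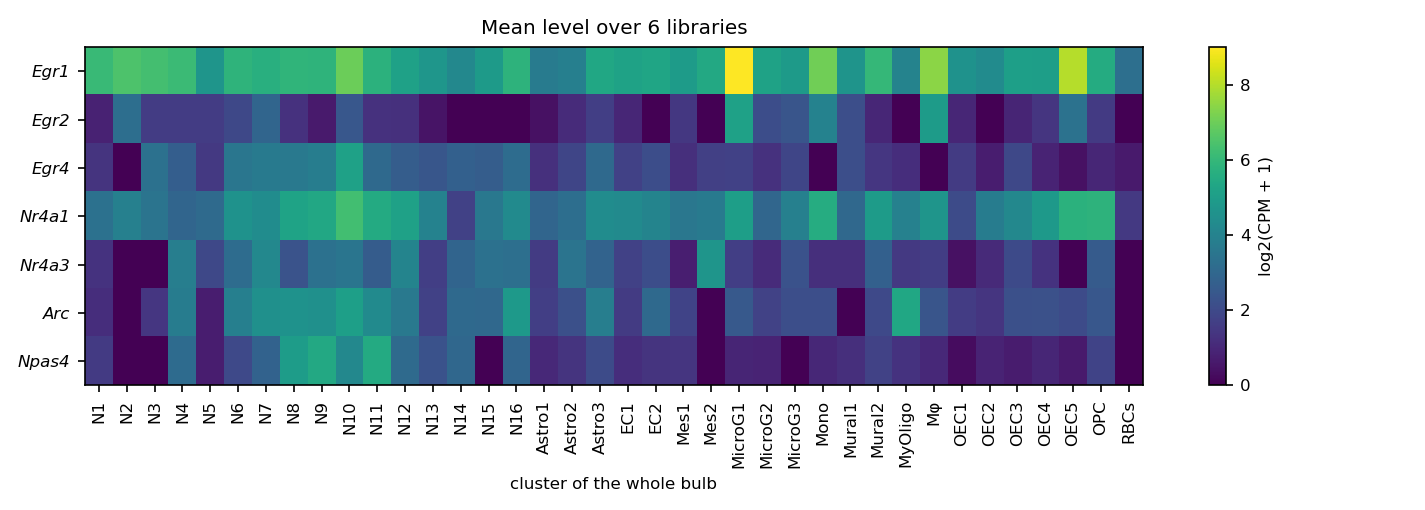
Heat map of the mean level of 7 genes (rows) in the 38 clusters of the whole bulb (columns), as log2(CPM + 1) over 6 libraries. Egr1 is brightest in MicroG1 and OEC5, Egr2 in MicroG1 and macrophages (Mφ), Npas4 in N8, N9 and N11, and Arc in MyOligo and N10.

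The likeness of these patterns was described with Pearson's r of log2(CPM + 1) over the 38 clusters, which share libraries and differ in depth. Of 14253 genes with at least 10 CPM in a cluster, and leaving out the 8 genes themselves, those most like Egr1 were Fosb (r = 0.76), Junb (0.74) and Ier2 (0.73). Those most like Egr2 were Il1b (0.72), Cd14 (0.72) and Ier5 (0.71). For Egr4 they included Esrrg (0.84) and Hpcal4 (0.84), and for Npas4 they were Eml5 (0.94), Trank1 (0.92) and Tmem191c (0.91). Those of Arc were Fam131b (0.85), Dgki (0.82) and Jakmip3 (0.82). Those of Nr4a3 included Slc4a10 (0.79) and Hs6st2 (0.75), and those of Nr4a1 were Plekha2 (0.59), Map1s (0.55) and Rab40b (0.54). Among the 8 genes, Egr1 and Egr2 had an r of 0.76, Egr1 and Nr4a1 of 0.64, Arc and Npas4 of 0.73, Egr4 and Npas4 of 0.66, and Egr1 and Egr4 of 0.03.

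Among the 18 neuronal clusters of the second annotation, the granule cell clusters n12-GC-6 and n11-GC-5 and the cluster n06-Transition held the highest levels of most of these genes. For each gene, the ranges of the clusters next to each other at the top of the order overlapped. Egr1 was at 177 ± 80.6 CPM in n12, 110 ± 39.4 in n11 and 68.1 ± 22.9 in n04-Immature (SD over 6 libraries). Nr4a1 was at 110 ± 39.2 CPM in n12, 67.9 ± 37.2 in n11 and 49.1 ± 26.6 in n06. Egr4 was at 43.9 ± 35.0 CPM in n12, 31.1 ± 11.4 in n11 and 14.2 ± 9.43 in n06.

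Arc was at 33.0 ± 9.03 CPM in n11, 28.1 ± 19.1 in n12 and 27.0 ± 9.84 in n06. Npas4 was at 51.0 ± 19.1 CPM in n06-Transition, 28.3 ± 11.995 in n07-GC-2 and 19.7 ± 23.9 in n12. The n12 values of Npas4 were 9.77 and 0 CPM in control, 28.2 and 16.7 in occluded and 63.3 and 0 in trained libraries, from 19 UMIs in 237 cells. Nr4a3 was at 33.8 ± 36.7 CPM in n09-GC-3, with a UMI in 11 cells. There it was 86.7 and 70.9 in the trained and 0 to 25.4 in the other libraries. Egr2 was at 9.90 ± 13.6 CPM in n12, with 8 UMIs, of which the trained libraries gave 28.8 and 25.7 CPM. In n14-GC-7 and n01-OSNs, with 4 and 7 UMIs of Egr2, the trained libraries were at 15.8 to 18.8 and 6.76 to 20.6 CPM and the others between 0 and 4.73. The top clusters were picked by means over all 6 libraries, so high trained values helped to pick those of Nr4a3 and Egr2.

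The libraries of the top clusters were spread widely where UMIs were few. Egr4 in n12 was at 9.77 and 55.9 CPM in control, 0 and 66.8 in occluded and 92.1 and 38.6 in trained libraries, and in n06 at 23.3 and 6.32, 6.41 and 10.98, and 28.6 and 9.79. Both clusters overlapped between all conditions. Arc in n12 was at 24.4 and 15.97 CPM in control, 35.3 and 16.7 in occluded and 63.3 and 12.9 in trained libraries, which also overlapped. Nr4a3 in n10-GC-4 was at 34.0 and 13.9 CPM in control, 0 and 26.1 in occluded and 21.7 and 0 in trained libraries, from 9 UMIs. In n12 it was at 9.77 and 0 CPM in control, 0 in both occluded and 28.8 and 25.7 in trained libraries, also from 9 UMIs.

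The comparisons between conditions ask whether these genes differed between occluded, trained and control mice. Trained mice also differed in water deprivation and reward, which cannot be told apart from odor experience here. Trained and occluded mice differ in both manipulations. Counts were summed over the cells of a cluster in each library and tested over all genes with edgeR's quasi-likelihood test, and a gene was called where its Benjamini-Hochberg adjusted p was under 0.05. CPM in the comparisons are scaled with TMM factors. In 14 neuronal clusters with at least 20 cells in every library, 22 pairs of gene and cluster over 8 clusters passed the filter on low counts. Egr2 and Egr3 passed in none. Of the 22 pairs, 7 passed only with the trained libraries counted, so the counts over 22 pairs lean toward higher trained values. Among them, Arc in n06-Transition had trained libraries on either side of the occluded ones. None of the called pairs is among these 7. In summed cells, fewer cells with a transcript and fewer transcripts per cell cannot be told apart.

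Training against occlusion gave 5 called pairs of 22, and each was higher in the trained libraries. Of all genes and clusters tested 0.193% were called in this comparison. They were Nr4a1 in 2 and Egr1 in 3 clusters. The trained mean was above the occluded mean in 21 of 22 pairs, without overlap in 17 (18% of all genes and clusters tested were higher without overlap), with a median log2 fold change of 1.17 compared with 0.002 over all genes tested. An unadjusted p under 0.05 was found in 16 of the 22, and in 7.26% of all tests. In the 15 pairs that passed without the trained libraries, the trained mean was higher in 14, without overlap in 12, with a median of 0.99.

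Nr4a1 in the granule cell cluster n07-GC-2 was at 35.2 and 35.0 CPM in the control, 16.8 and 16.6 in the occluded and 79.9 and 52.2 in the trained libraries. The 3 conditions did not overlap. The trained libraries were higher than the occluded ones (log2 fold change 2.00, SE 0.35, edgeR adjusted p = 0.0030). The share of n07 cells with an Nr4a1 UMI was 1.39% and 1.87% in the occluded and 4.53% and 5.88% in the trained libraries. After thinning to 500 UMIs it was 0.831% and 1.02% compared with 2.35% and 3.55%, and the cells with a UMI had 1.13 UMIs on average. The difference was not called in cells of at least 1000 UMIs (2.28, edgeR adjusted p = 0.108) or of at most 20% mitochondrial UMIs (1.65, edgeR adjusted p = 0.112). In Astro1 the thinned share over all libraries was 0.479%.

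Nr4a1 in the granule cell cluster n11-GC-5 was at 69.6 and 48.3 CPM in the control, 35.8 and 51.6 in the occluded and 145 and 69.7 in the trained libraries. Control and occluded libraries overlapped, and the trained ones were above both. The log2 fold change of trained against occluded was 1.32 (SE 0.29, edgeR adjusted p = 0.040). It was close to the threshold, and was not called with upper quartile factors (1.30, adjusted p = 0.069), with the 4 libraries of the comparison only (1.31, adjusted p = 0.093) or when adjusted over all clusters (adjusted p = 0.075). In n12-GC-6, where the level of Nr4a1 was highest, it was 0.01 (SE 0.41), with occluded libraries at 74.6 and 215 CPM on either side of the trained ones at 147 and 124, and control libraries at 95.9 and 148. In n06-Transition, Nr4a1 was at 52.2 and 67.3 CPM in control, 27.7 and 11.9 in occluded and 80.1 and 82.2 in trained libraries, with a log2 difference of 2.05 between trained and occluded that was not called (SE 0.53, edgeR adjusted p = 0.082).

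Egr1 in n11-GC-5 was at 101 and 140 CPM in the control, 63.4 and 71.9 in the occluded and 165 and 141 in the trained libraries. The 3 conditions did not overlap, and the log2 fold change of trained against occluded was 1.18 (SE 0.21, edgeR adjusted p = 0.0042). In n12-GC-6 Egr1 was at 252 and 158 CPM in control, 141 and 113 in occluded and 379 and 247 in trained libraries, a change of 1.37 between the latter (SE 0.32, edgeR adjusted p = 0.017). The trained and control libraries of n12 overlapped, and with the replicate number as a block the difference was not called (1.31, edgeR adjusted p = 0.078). The cluster had 22 to 56 cells in a library. Without thinning, the share of n12 cells with an Egr1 UMI was 18.9% and 19.4% in occluded and 43.4% and 45.5% in trained libraries. After thinning to 500 UMIs it was 8.11% and 5.56% compared with 9.43% and 4.55%, which overlapped. In n13-AstrocyteLike Egr1 was at 73.5 and 52.5 CPM in control, 21.0 and 35.0 in occluded and 132 and 64.7 in trained libraries. The change of trained against occluded was 2.09 (SE 0.48, edgeR adjusted p = 0.014). The occluded libraries of n13 held 4 UMIs of Egr1 each, and trained replicate 1 held 94. Egr1 in n13 was not among the calls in cells of at least 1000 UMIs, which left 7 to 33 cells in a library. Nor was it among those in cells of at most 20% mitochondrial UMIs, which left 31 to 69. In n04-Immature, which had the third highest level of Egr1, the trained libraries were at 62.2 and 55.9 CPM, between the occluded ones at 88.3 and 44.2, and the control libraries were at 57.8 and 105 CPM.

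Egr4, Nr4a3, Arc and Npas4 were not called in any single cluster. The smallest adjusted p among them was that of Arc in n07-GC-2, at 12.7 and 32.8 CPM in control, 12.2 and 6.64 in occluded and 55.5 and 22.4 in trained libraries (log2 difference 1.95, SE 0.51, edgeR adjusted p = 0.12). This pair, like Nr4a3 in n11, is among the 7 that passed the filter only with the trained libraries. It was called with the replicate block, with no filter on low counts, and without control replicate 1, control replicate 2 or trained replicate 2. Nr4a3 in n11, at 0 and 5.43 CPM in occluded and 19.4 and 18.4 in trained libraries, was called with no filter (2.60 with the filter, SE 0.76, edgeR adjusted p = 0.18). Egr4 in n11 was at 24.1 and 33.05 CPM in the control, 14.6 and 31.2 in the occluded and 48.5 and 41.0 in the trained libraries (log2 difference 0.93, SE 0.35, edgeR adjusted p = 0.38). Arc in n11 was at 29.8 and 43.2 CPM in control, 21.1 and 28.5 in occluded and 46.9 and 34.8 in trained libraries (0.72, SE 0.33), and in n06 the trained libraries at 41.3 and 13.7 CPM lay on either side of the occluded ones at 20.8 and 29.8, with control libraries at 29.8 and 42.5. Npas4 in n06, its highest cluster, was at 59.7 and 70.8 CPM in control, 13.9 and 59.5 in occluded and 65.6 and 65.1 in trained libraries (0.76, SE 0.46), and in n07, where control libraries were at 14.1 and 41.5, it was at 18.3 and 23.2 compared with 44.7 and 33.6 (0.99, SE 0.42).

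Without trained replicate 1, the male pool, none of the 5 was called, at log2 fold changes of 0.65 to 1.63 and adjusted p of 0.185 to 0.951, and all kept their direction. The female pools differed in the same direction as the male pools in the 5 pairs, and DESeq2 called none of them. Without occluded replicate 1, only the 2 calls of Egr1 in n11 and n12 were made.

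**Figure D2:**
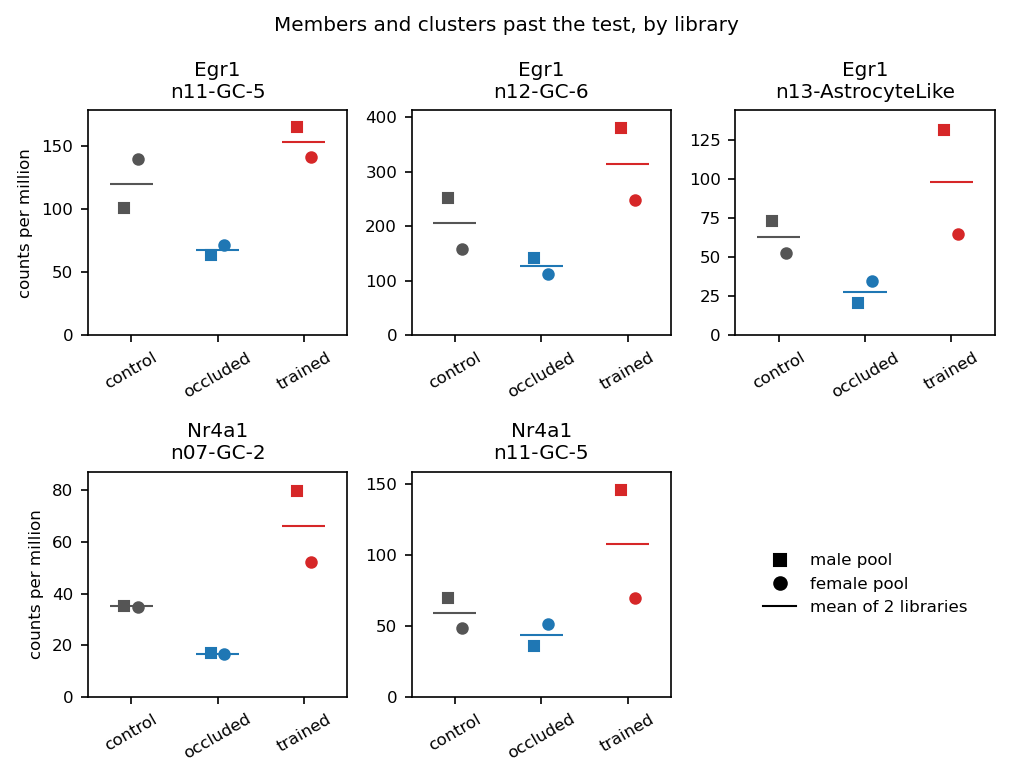
Level by library (TMM-scaled CPM, vertical axes starting at 0) of the 5 pairs of gene and cluster that were called between trained and occluded libraries, with squares for male pools, circles for female pools and lines for the mean of 2 libraries. The trained points lie above the occluded ones in each panel, and the male trained pool is the highest point in each.

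Occlusion against control gave no called pair among 22, where 0.0974% of all genes and clusters were called. The occluded mean was below the control mean in 19 of 22 pairs, without overlap in 12 (17.2% of all tests were lower without overlap), and the median log2 difference was -0.62 compared with 0.0014 over all genes. An unadjusted p under 0.05 was found in 7 pairs and in 5.29% of all tests, and DESeq2 called none. The smallest adjusted p was 0.30, for Egr1 in n06-Transition, at 67.1 and 110 CPM in control and 13.9 and 35.7 in occluded libraries (log2 difference -1.78, SE 0.50). Nr4a1 in n07-GC-2 had a difference of -1.06 (SE 0.41).

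Training against control gave no called pair among 22, where 0.051% of all genes and clusters were called. The trained mean was above the control mean in 19 of 22 pairs, without overlap in 11 (17.6% of all tests were higher without overlap), and the median log2 difference was 0.72. An unadjusted p under 0.05 was found in 7 pairs and in 5.41% of all tests, and DESeq2 called none. In the 15 pairs that passed the filter without the trained libraries, the trained mean was higher in 13, without overlap in 7, with a median of 0.63. The smallest adjusted p was 0.36, for Nr4a1 in n07-GC-2 (log2 difference 0.94, SE 0.28). The comparisons share libraries, so their directions are not independent of each other.

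**Figure D3:**
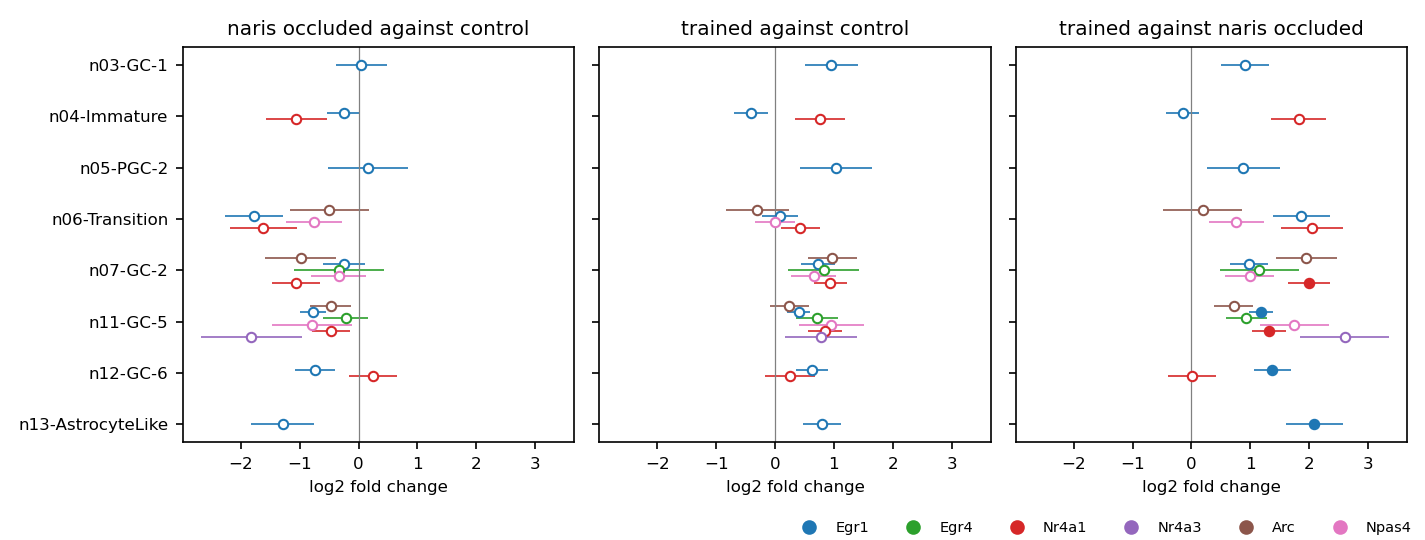
Log2 fold change with its standard error (points and horizontal bars) of each gene that passed the filter in 8 neuronal clusters, for the 3 comparisons on 1 common axis, with filled points for an adjusted p under 0.05. The points lie mostly left of 0 for occlusion against control and mostly right of 0 for both training comparisons, and the 5 filled points are in the panel of trained against naris occluded.

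Summed over all neurons (clusters N1 to N16), 7 of the 8 genes passed the filter, and 6 of these 7 rose in trained against occluded libraries, where 1.97% of 13399 genes were called. Egr2 passed only through the trained libraries, where it is high, and without it 5 of 6 rose. The trained libraries lay above the occluded ones without overlap in 7 of 7 genes, and in 6 of 6 without Egr2. They did so in 23.1% of all genes tested. This pool mixes clusters whose shares differ between libraries, and it was added after the data of the single clusters were seen. The narrower pool of the 12 adult-born clusters, with 2228 to 3336 cells a library, gave 6 calls among 7 genes tested. Egr2 again passed only through the trained libraries, and without it 5 of 6 were called. An unadjusted edgeR p under 0.05 was found in 7 of these 7, which include Egr2. Over all genes of the 12 clusters it was found in 1740 of the 12698 tested. With equal numbers of cells of each of these clusters, 1572 a library, Nr4a1 (log2 fold change 1.06, adjusted p = 0.019, compared with 1.35 in all cells of the pool) and Nr4a3 (2.55, adjusted p = 0.016, compared with 2.05) were called by edgeR. Egr1 (0.63, compared with 0.83), Npas4 (1.18, compared with 1.51) and Arc (0.38, compared with 1.20) were not, and Egr2 did not pass the filter.

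Nr4a1 was at 29.4 and 26.1 CPM in the control, 15.9 and 18.1 in the occluded and 62.0 and 33.9 in the trained libraries (log2 fold change of trained against occluded 1.52, SE 0.23, edgeR adjusted p = 0.0052). Npas4 was at 9.55 and 15.7 CPM in control, 5.41 and 9.05 in occluded and 26.4 and 18.5 in trained libraries (1.66, SE 0.28, edgeR adjusted p = 0.0071). In these 2 genes the conditions followed the order of occluded, control and trained with no overlap, as did 4.57% of all genes tested. Nr4a3 was at 3.29 and 5.55 CPM in control, 1.08 and 3.35 in occluded and 13.6 and 9.72 in trained libraries (2.43, SE 0.40, edgeR adjusted p = 0.0069).

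Egr1 was at 57.3 and 68.2 CPM in control, 42.4 and 40.5 in occluded and 96.8 and 63.3 in trained libraries (0.96, SE 0.17, edgeR adjusted p = 0.0099). Its trained female pool lay within the range of the control libraries. Egr2 had 3 and 5 UMIs in control, 3 and 2 in occluded and 28 and 17 in trained libraries, and the control libraries overlapped with the occluded ones. Since it passed the filter through its trained libraries alone, its call (edgeR adjusted p = 0.010) follows in part from that selection. Arc was at 11.3 and 17.1 CPM in control, 7.04 and 8.07 in occluded and 27.8 and 13.1 in trained libraries (1.47, SE 0.32, edgeR adjusted p = 0.029). Egr4 was at 8.30 and 12.02 CPM in control, 3.97 and 8.66 in occluded and 20.8 and 9.94 in trained libraries, and was not called (1.33, SE 0.36, edgeR adjusted p = 0.080).

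Occlusion against control gave no call in the neuron pool, where 0.0448% of genes were called, with 7 of 7 genes lower on average and 4 at an unadjusted p under 0.05 (7.63% of all genes). Training against control gave none, where 0.0746% of genes were called, with 7 of 7 higher on average, 5 at an unadjusted p under 0.05 (10.4% of all genes) and a smallest adjusted p of 0.10. Without Egr2, which passed the filter only through the trained libraries, 6 of 6 were higher in training against control, 3 of them without overlap. DESeq2 called none in either comparison. Without trained replicate 1, the calls between trained and occluded libraries went from 6 genes to 1, Nr4a1. Without occluded replicate 2 there were 3, Npas4, Nr4a1 and Nr4a3, and DESeq2 called 4, Arc, Egr1, Npas4 and Nr4a1.

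Other values moved with the trained neurons. The summed level of 15 heat shock and dissociation genes was 3263 to 3310 CPM in control, 3406 to 3419 in occluded and 3643 to 4072 in trained libraries, and 1 of the 14 tested rose (Hspa5, log2 fold change 0.80). In the clusters with calls, Hspa8, a chaperone gene of the same list, rose in trained against occluded libraries in n07-GC-2 (0.89, SE 0.18), n11-GC-5 (0.72, SE 0.13) and n12-GC-6 (0.88, SE 0.18), and none of the 10 list genes tested in n13 was called. The sum was 2322 to 2363 CPM in occluded and 2689 to 3289 in trained libraries of n07, and 3764 to 4122 and 4747 to 5422 in those of n12. In n11-GC-5 it was 3816 to 3930 in occluded and 4423 to 5270 in trained libraries, and red blood cell markers were at 2142 to 2873 CPM in the occluded and 49.5 to 164 in the other libraries. The sum of 6 microglial markers in all neurons was 89.6 to 106 CPM in control, 96.4 to 118 in occluded and 89.9 to 92.1 in trained libraries, and Cx3cr1 and P2ry12 were near 10 CPM. The part of the heat shock genes and of the red blood cell markers in the results was not tested.

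**Figure D4:**
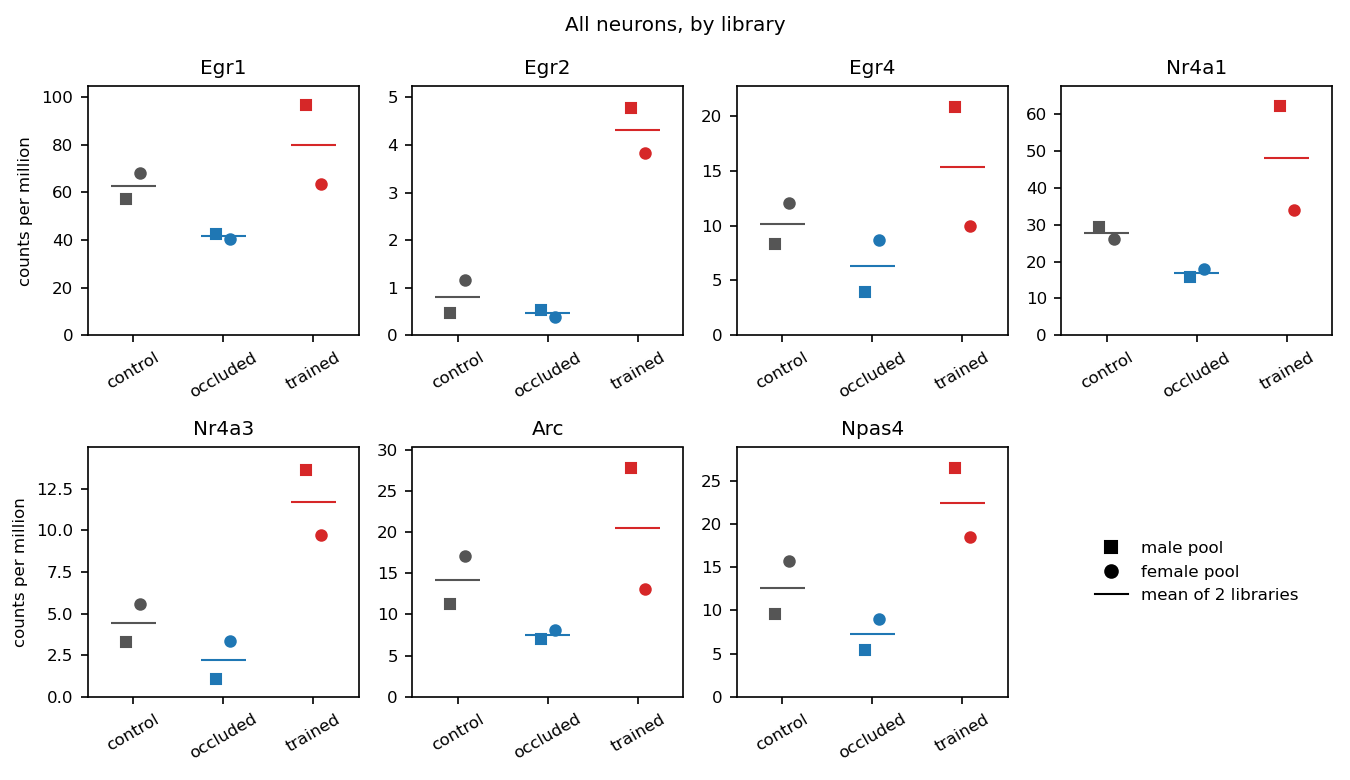
Level by library (TMM-scaled CPM, vertical axes starting at 0) of 7 genes summed over all neurons in control, occluded and trained mice, with squares for male pools, circles for female pools and lines for the mean of 2 libraries. The 2 trained points lie above the 2 occluded points in each panel, and in Egr1, Egr4 and Arc the trained female pool is below a control point.

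The genes around these 8 were read from lists of the same response in all neurons. Of 30 rapid response genes tested, 5 rose in trained against occluded libraries and none fell, among them Fosl2 (log2 fold change 1.71, SE 0.22) and Fosb (1.69, SE 0.29), which encode AP-1 subunits, and Klf10 (1.34, SE 0.21). The median of the list was 0.34, compared with 0.0015 over all genes, of which 1.97% were called. Of 17 later effector genes tested, 7 rose and none fell, among them Baz1a (2.08, SE 0.35), Homer1 (1.26, SE 0.12), which encodes a scaffold protein of excitatory synapses, and Pcsk1 (1.24, SE 0.22), which encodes a prohormone convertase, with a list median of 0.48. Of 19 upstream regulators and EGR corepressors, 3 rose and none fell. They were the serum response factor coactivators Mkl1 (0.77, SE 0.17) and Mkl2 (0.70, SE 0.12) and the EGR corepressor Nab2 (0.63, SE 0.14), with a list median of 0.27. The median of the heat shock and dissociation list was also 0.27.

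Between training and control 1 later effector gene was called, Homer1, at 52.6 and 51.3 CPM in control and 117 and 96.7 in trained libraries (log2 fold change 1.04, SE 0.12, edgeR adjusted p = 0.0023). Between occlusion and control 1 was called, the granin gene Scg2, at 523 and 555 CPM in control and 330 and 285 in occluded libraries (-0.81, SE 0.12, edgeR adjusted p = 0.033). None of the rapid response or upstream genes was called in these comparisons in the neuron pool.

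In 10 classes of nonneuronal cells, 22 pairs of gene and class passed the filter, 5 of them only with the trained libraries, and none was called in any comparison. The shares called over all genes and classes were 0.143% for trained against occluded, 0.0271% for occluded against control and 0.0556% for trained against control. The smallest adjusted p of trained against occluded were 0.11 for Nr4a1 in astrocytes (log2 difference 1.95, SE 0.47) and in olfactory ensheathing cells (1.046, SE 0.22). Arc in ensheathing cells, which passed the filter only through the trained libraries, had a difference of 1.91 (SE 0.46, edgeR adjusted p = 0.18), while the difference of Nr4a1 in oligodendrocyte precursors was -1.14 (SE 0.52). In their sum, 0% of 14652 genes were called between trained and occluded libraries with edgeR, where 1834 genes and 5 of 6 members tested had an unadjusted p under 0.05 and DESeq2 called Nr4a1. The trained libraries lay above the occluded ones without overlap in 5 of 6 members and in 20.7% of all genes tested. Egr4 and Nr4a3 passed the filter there only with the trained libraries, and without them the count was 3 of 4. Nr4a1 followed the order of occluded, control and trained with no overlap, as did 2.27% of all genes. So did Egr4 and Nr4a3, whose high trained values had let them pass.

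Nr4a1 in the nonneuronal sum was at 16.7 and 16.4 CPM in control, 12.2 and 15.5 in occluded and 29.8 and 23.2 in trained libraries (log2 difference of trained and occluded 0.94, SE 0.17, edgeR adjusted p = 0.13). In the same cells the heat shock and dissociation genes summed to 3105 to 3204 CPM in control, 3135 to 3183 in occluded and 3454 to 4587 in trained libraries, and markers of inhibitory interneurons to 726 to 840 CPM in occluded and 839 to 1335 in trained libraries. The part of these in the values of Nr4a1 was not tested.

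Whether the genes were counted in the same cells was described in granule and periglomerular cells with at least 1000 UMIs, each thinned to 1000. Over 6302 cells and all pairs of the 8 genes there were 164 joint detections, compared with 71.2 from the product of the single shares within each cluster and library, a ratio of 2.30. At 500 UMIs and 10307 cells the ratio was 2.53. Egr1 and Nr4a1 were found together in 44 cells compared with 19.2, and Egr1 and Arc in 25 compared with 7.24, and both were above the product in 6 of 6 libraries. Egr1 and Egr4 were found together in 24 cells compared with 9.16, in 5 of 6 libraries. Npas4 was found with Egr1 in 9 cells compared with 5.12, and with Nr4a3 in none compared with 0.564, which these counts are too few to tell apart. The study's methods state that doublets of different cell types were removed. No caller was run here, and a pair of cells under 1 barcode also gives joint detections.

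**Figure D5:**
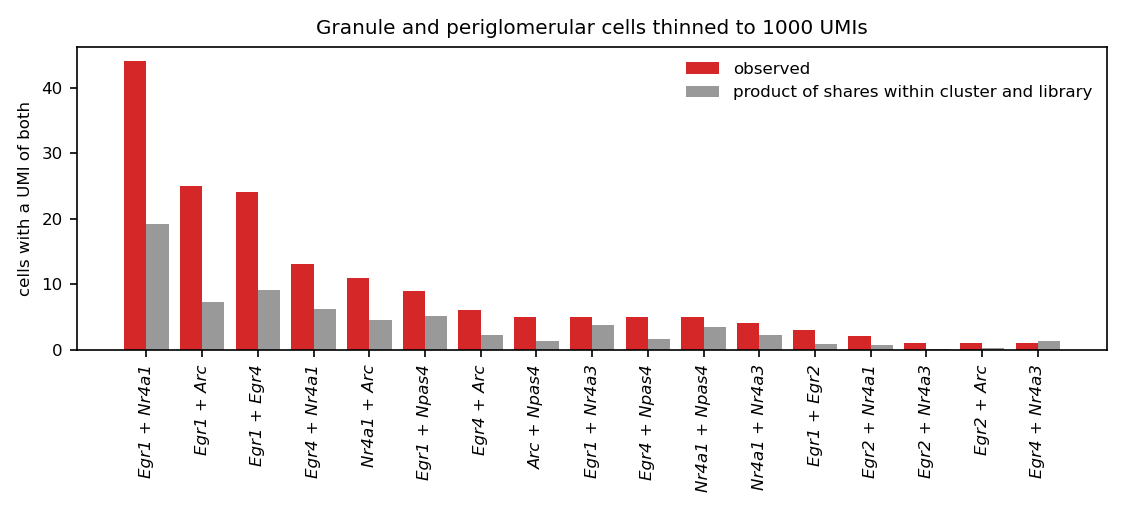
Number of cells with a UMI of both genes of a pair (red bars) and the number given by the product of the single shares within each cluster and library (grey bars), for each pair found in at least 1 cell. Egr1 with Nr4a1 (44 compared with 19.2), Arc (25 compared with 7.24) and Egr4 (24 compared with 9.16) lead the pairs.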

How the data were processed

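Single-cell libraries were made from olfactory bulbs with droplets (10x Genomics). Per the labels, the authors aligned reads to mm10 with Cell Ranger 2.0.0 and clustered cells with Seurat 2.2.1. The deposited table holds raw UMI counts, not normalized, and the cell table holds the authors' cluster names and, as a deposited fraction of UMIs, the mitochondrial share. Clusters keep the deposited names. Their numbers differ from those in the study's text in neuronal and some nonneuronal clusters. MicroG1 here holds 790 cells, OEC5 883 and Mes2 230. Cell names give the trained libraries the opposite replicate number from the library column, which was used here.

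Counts were summed per library and cluster (at least 20 cells in every library) and tested in edgeR 4.0.16 (R 4.3.3) over all 6 libraries, with TMM factors, filterByExpr, the quasi-likelihood F test and Benjamini-Hochberg adjustment at 0.05 within each cluster and comparison. The SE is the size of the log2 fold change divided by the square root of F. Scripts were tested on simulated counts. DESeq2 1.42.0 was an alternative. CPM were scaled to all genes. Shares of cells were thinned to 500 UMIs and pairs to 1000. The 1123 barcodes without a cluster name were left out. Per the methods the authors removed doublets of different cell types, and no doublet caller was run here.

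All 8 genes are named. Values by library are given for calls and for the 3 neuronal clusters with the highest level (TMM-scaled where tested). For Egr2 and for Nr4a3 in n09-GC-3, libraries outside training are given as a range or left out, and Egr3 is left out. Other lists are given by counts with the called genes of largest change. Some genes whose pattern over clusters was like that of a member are not reported here. The members and lists were chosen with earlier results of these data known. The libraries pool 3 animals of 1 sex, so p-values measure the spread between pools, which includes sex. Python 3.11.15, numpy 2.4.6, pandas 2.3.3, scipy 1.17.1 and matplotlib 3.10.9 were used.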

Additional observations from a re-analysis of the deposited data

Results flagged for a closer look

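In each comparison, Egr1 and Nr4a1 had populations in which the libraries of 1 condition lay wholly above those of the other and populations in which they lay wholly below. Egr1 was tested in 18 populations and Nr4a1 in 13. Over all genes and populations, 17.1% to 18.1% of tests were higher without overlap and 17.2% to 17.7% lower, depending on the comparison. The difference between these populations was not tested, and of the values here only Egr1 in n13-AstrocyteLike passed an adjusted p of 0.05 in edgeR's quasi-likelihood test.

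Between occluded and control libraries, Egr1 was higher without overlap in 3 populations and lower in 5, and Nr4a1 in 1 and 5. Egr1 had a log2 difference of 0.83 in monocytes and of -1.78 in n06-Transition. Nr4a1 had a difference of 2.28 in mural cells, where it was at 7.08 and 3.62 CPM in control and 37.6 and 20.4 in occluded libraries, and of -1.62 in n06-Transition.

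Between trained and control libraries, both genes were higher without overlap in 8 populations and lower in 1. Egr1 had a difference of 1.04 in n05-PGC-2 and of -0.36 in macrophages. Nr4a1 had a difference of 2.70 in mural cells, with trained libraries at 43.9 and 29.6 CPM. Both of these higher examples had passed the filter on low counts only with the trained libraries. So had Egr1 in myelinating oligodendrocytes and Nr4a1 in n04-Immature, which are also among the higher populations. Nr4a1 had a difference of -1.18 in oligodendrocyte precursors, where control libraries were at 109 and 51.2 CPM and trained ones at 44.2 and 25.8.

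Between trained and occluded libraries, Egr1 was higher without overlap in 9 populations and lower in 1, and Nr4a1 in 7 and 1. These higher counts include populations that passed the filter on low counts only with the trained libraries. They were n05-PGC-2 and myelinating oligodendrocytes for Egr1, and n04-Immature for Nr4a1. Egr1 differed by 2.09 in n13-AstrocyteLike and by -0.42 in oligodendrocyte precursors. Nr4a1 differed by 2.05 in n06-Transition and by -1.14 in oligodendrocyte precursors.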

How the results depend on the processing

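Of 15 recounts of the neuronal calls of trained against occluded in single clusters, 9 were within 1.5 times the reported 5 and 6 were lower. The pools count genes, not pairs, and are given apart. The 5 other counts were 0, and 129 of their 140 recounts were also 0. The calls made over all settings were higher in trained libraries. These settings recount the same 6 libraries, so the directions of their calls are not independent of each other. Occlusion against control gave 0 calls under every setting run. In neuronal clusters, the 5 calls of trained against occluded became 0 with DESeq2 and 3 with the 4 libraries of the contrast only, with cells of at least 1000 UMIs or with cells of at most 20% mitochondrial UMIs, and 0 to 7 when 1 library was left out, pools included. The pool of 12 adult-born clusters gave 2 with DESeq2 and 2 with equal cells of each cluster. Training against control gave 0 to 1 without 1 library (Nr4a1 without trained replicate 2). In nonneuronal classes it gave 2 with no filter on low counts and 0 to 2 without 1 library. Trained against occluded gave 5 there with no filter, 0 to 3 without 1 library, and 1 in the pool with DESeq2. The cause of these differences was not tested. A neuronal cluster held the highest level of 3 genes over all libraries and of 5 in the control libraries only.

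Libraries of the same replicate number share the sex of the pool, and whether they share more was not tested. The deviations of same-numbered libraries correlated at 0.036 to 0.377 (median 0.128, 72 pairs, 56 over 0.1). With the replicate block, there were also 5 neuronal calls of trained against occluded, with Egr1 in n12-GC-6 lost (adjusted p = 0.078) and Arc in n07-GC-2 gained, the neuron pools gave 7, the nonneuronal pool 2, and training against control 1 in the adult-born pool. The pools, and the settings on them, were added after seeing the data. Egr2 and Egr3 had too few UMIs to be tested in any single neuronal cluster.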
